A study of Homo sapiens with 29 samples.

Results

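SR proteins and their partners were examined as a set of 39 genes: 11 SR proteins (SRSF1 to SRSF11), 4 SR-like proteins (TRA2A, TRA2B, SRRM1 and SRRM2), 6 SR protein kinases (CLK1 to CLK4, SRPK1 and SRPK2), 3 U1-associated LUC7-like proteins (LUC7L, LUC7L2 and LUC7L3), 10 other proteins rich in arginine and serine or found in nuclear speckles (PNISR, RSRP1, CCNL1, CCNL2, SREK1, SON, ARGLU1, RBM39, RBM25 and RBM5), 2 DEAD-box helicases (DDX5 and DDX17), and OGT, GOLGA8A and GOLGA8B, 3 further genes grouped here as intron-retaining. Members were chosen by name, with earlier results of these data known. All 39 were among the 16382 genes of the siRNA table, and 38 of them lay above the median of the tested genes in normalised reads, a scale that is not corrected for gene length. Retained introns cannot be seen in reads summed per gene, so whether these genes retained introns in these cells was not tested.

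SR proteins bind exonic enhancers through RNA recognition motifs and recruit the spliceosome through domains of alternating arginine and serine, which kinases of the CLK and SRPK families phosphorylate. hnRNPA1 is known to oppose SR proteins such as SRSF1 at splice sites. Many genes of this group control their own output, through exons that bring in a premature stop codon or through introns that detain the transcript in the nucleus, and CLK1, CLK4 and OGT are textbook cases of the second kind.

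The series holds 29 samples of HEK293, a transformed line derived from human embryonic kidney. In the knockdown experiment, 4 libraries from cells given hnRNPA1 siRNA were set against 4 from cells given control siRNA, all of the same line. In the RNA immunoprecipitation (RIP) experiment, untreated cells gave hnRNPA1 antibody pull-downs from total lysate (3 samples), cytosol (4) and mitochondria (4), with normal IgG pull-downs from total lysate (3), cytosol (4) and mitochondria (3). The labels do not state that numbered samples are separate cultures, and the spread behind each p-value may therefore be technical.

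Depth, estimated from the smallest step between values, was 16610000 to 22060000 reads per siRNA library. HNRNPA1 itself had 6506, 6413, 7185 and 5306 normalised reads in knockdown libraries 1 to 4, against 18637, 20403, 18614 and 19348 in control libraries 1 to 4. Its log2 fold change was -1.61 ± 0.09 (SE, limma adjusted p = 2.23e-06), so the knockdown labels fit the targeted gene. Of the 6 HEK293 markers looked for (KRT8, KRT18, VIM, PAX2, NEFM and NEFL) all were in the table, with PAX2 lowest at 4.92 to 16.9 normalised reads. Of 12 markers of lymphocytes, fibroblasts, endothelium, erythroid cells and hepatocytes, 3 were in the table (CD8A, COL1A1 and COL3A1), each under 65 normalised reads in every library. COL1A1, at 26.6 to 64.9, lay above PAX2 in every library. The siRNA table may have been cut at a spreadsheet line limit, so a gene absent from it may still be expressed. The fit over 15267 genes called 252 (limma adjusted p under 0.05), 103 higher and 149 lower in the knockdown, with a median log2 fold change of 0.00. Leaving out knockdown library 2 or 3 gave 74 or 69 calls, leaving out control library 1, 2, 3 or 4 gave 73, 138, 156 or 61, and leaving out knockdown libraries 3 and 4 together gave 94.

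In the knockdown 38 of the 39 genes did not pass the test. RSRP1 fell, and it was the only one of the 39 called by limma at an adjusted p under 0.05, beside 1.65% of all genes tested called in either direction and 0.976% called lower. At an unadjusted p under 0.05 there were 13 of the 39, of which 11 were lower in the knockdown, against 9.7% of all genes, and 2 were higher, against 9.5% (19.2% in either direction). The median log2 fold change over the 39 was -0.07, with 23 below 0 and 16 above, where all genes tested had 7512 below and 7755 above. The plot of fold changes shows the lowest values among the LUC7-like, RS-rich and GOLGA8 genes and values near 0 for most SR proteins.

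**Figure D1:**
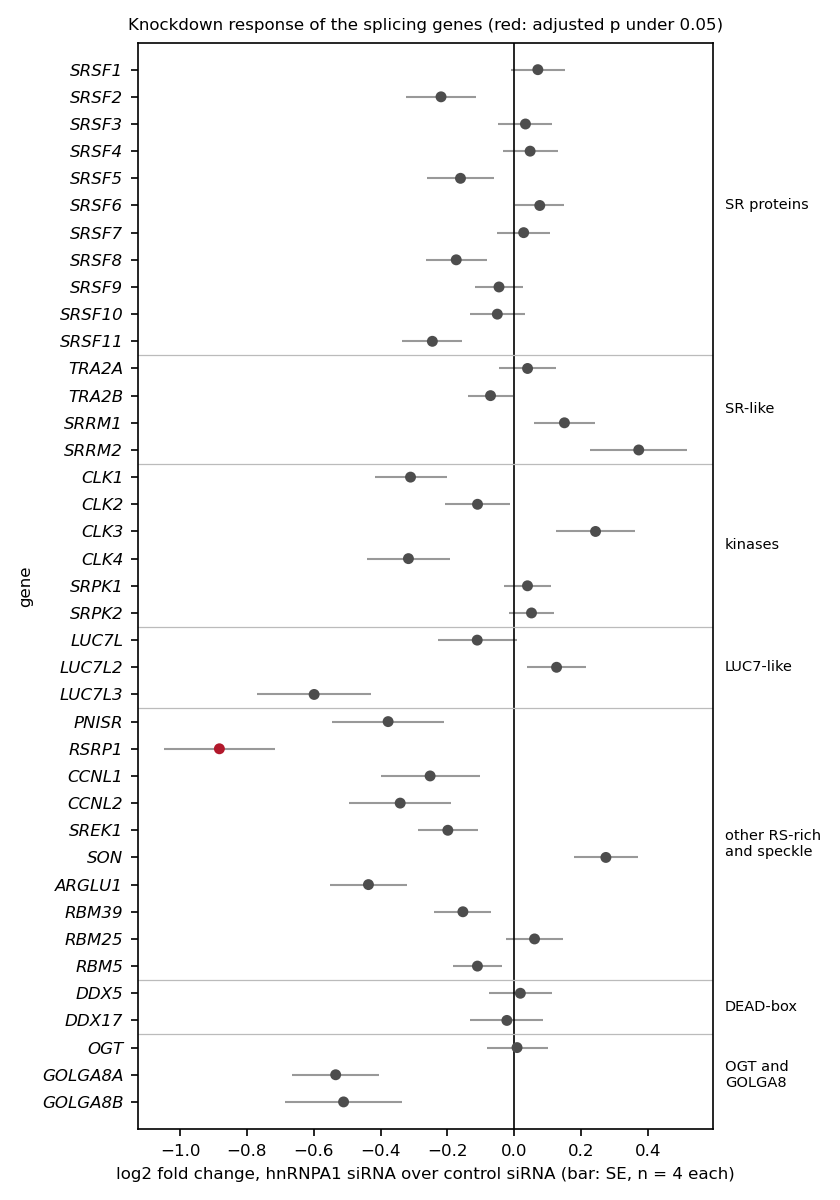
Log2 fold change of each of the 39 genes, hnRNPA1 siRNA over control siRNA, with its standard error (4 libraries each), ordered by role. RSRP1, in red, is the one gene with an adjusted p under 0.05 at -0.88, and SRRM2 has the highest value at 0.37.

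RSRP1 (ENSG00000117616.18), arginine and serine rich protein 1, lies on chromosome 1. It had 526, 473, 306 and 296 normalised reads in knockdown libraries 1 to 4, against 840.4, 694, 689 and 652 in control libraries 1 to 4. Every knockdown library was below every control library, and knockdown libraries 3 and 4 were the lowest of the 8. The log2 fold change was -0.88 ± 0.17 (SE, n = 4 each, limma adjusted p = 0.0223), a mean of 55.7% of control. RSRP1 missed the threshold when knockdown library 3 (adjusted p = 0.065), control library 1 (adjusted p = 0.0935) or control library 4 (adjusted p = 0.0509) was left out, while the log2 fold change stayed between -1.03 and -0.75 when any 1 of the 8 libraries was left out. RSRP1 overlaps RHD in RefSeq, and the sources used here do not say how reads of overlapping genes were assigned.

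Only 4 of the 39 genes had every knockdown library below every control library, RSRP1, LUC7L3, ARGLU1 and GOLGA8A, beside 5.95% of all genes tested. None of the 39 had every knockdown library above every control library, beside 5.69% of all genes. LUC7L3 (ENSG00000108848.16) is a human relative of yeast Luc7, a U1 snRNP protein that helps select the upstream splice site. It had 3483, 3193, 1994 and 1858 normalised reads in the knockdown, against 3657, 3547, 3781 and 4422 in the control. Knockdown libraries 3 and 4 stood far below the other 6, and knockdown libraries 1 and 2 lay just under the lowest control. Its log2 fold change was -0.60 ± 0.17 (SE, limma adjusted p = 0.0906), which passed the threshold without knockdown library 1 (adjusted p = 0.039).

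ARGLU1 (ENSG00000134884.15), an arginine and glutamate rich protein linked to Mediator and to splicing, had 1924, 1967, 1331 and 1637 normalised reads in the knockdown, against 2179.7, 2054, 2415 and 2559 in the control. The groups did not overlap, and knockdown libraries 3 and 4 were again the lowest. Its log2 fold change was -0.44 ± 0.12 (SE, limma adjusted p = 0.0728). GOLGA8A (ENSG00000175265.18), a golgin-family gene on chromosome 15, had 593, 582, 424 and 553 normalised reads in the knockdown, against 692, 644, 895 and 896 in the control, with a log2 fold change of -0.53 ± 0.13 (SE, limma adjusted p = 0.0571). The groups did not overlap, and without control library 2 the gene passed the threshold (adjusted p = 0.0442). GOLGA8B (ENSG00000215252.12), its near-identical copy, had 434, 481, 299.6 and 265 normalised reads in the knockdown, against 469.9, 421, 615 and 563 in the control. Knockdown libraries 1 and 2 lay among the controls, and the log2 fold change was -0.51 ± 0.18 (SE, limma adjusted p = 0.144). Reads of such copies can be split between them, so the values of GOLGA8A and GOLGA8B are uncertain.

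**Figure D2:**
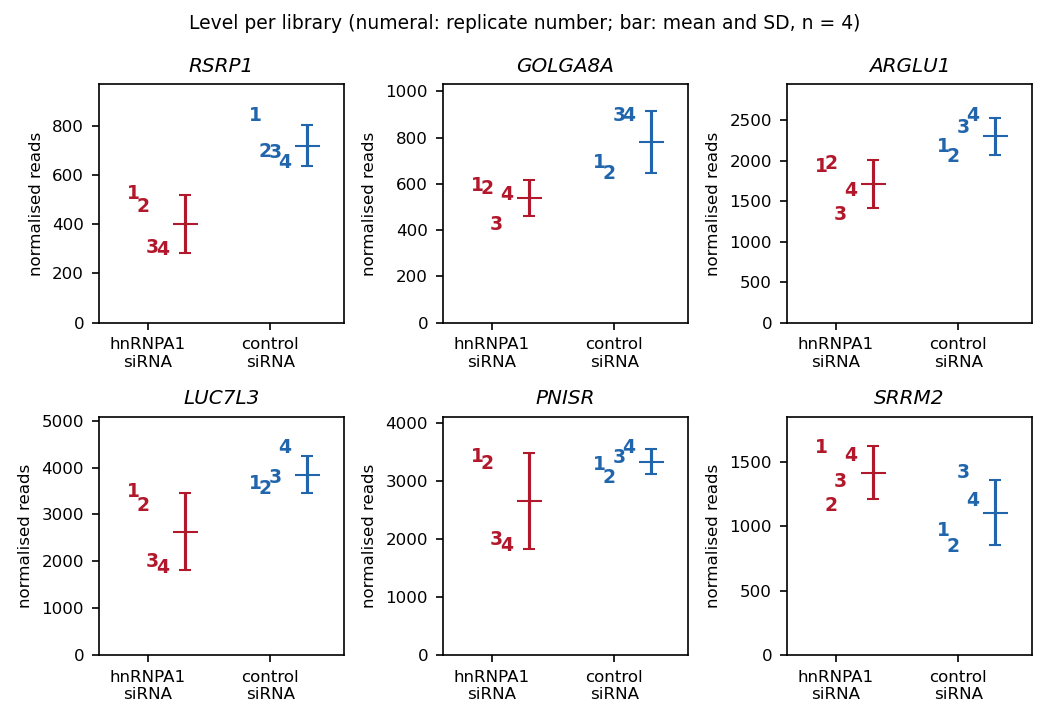
Normalised reads of 6 of the 39 genes in each siRNA library, with hnRNPA1 siRNA at the left and control siRNA at the right of each panel, numerals giving the replicate and bars the mean and SD (n = 4). Knockdown libraries 3 and 4 lie lowest for RSRP1, GOLGA8A, ARGLU1, LUC7L3 and PNISR, while SRRM2 overlaps between groups with a higher knockdown mean.

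Among the other RS-rich and speckle proteins, 8 of 10 had a log2 fold change below 0, with a median of -0.225. PNISR (ENSG00000132424.17), an RS-rich protein found in nuclear speckles, had 3422, 3301, 1993 and 1888 normalised reads in the knockdown, against 3270.1, 3055, 3400.4 and 3565 in the control. Knockdown libraries 1 and 2 were within the control range, so the log2 fold change of -0.38 ± 0.17 (SE, limma adjusted p = 0.237) came from knockdown libraries 3 and 4. CCNL1 and CCNL2 encode the L-type cyclins, partners of the splicing-linked kinase CDK11. CCNL1 had 998, 924, 560.1 and 666 normalised reads in the knockdown, against 937, 839, 978 and 900.1 in the control, with a log2 fold change of -0.25 ± 0.15 (SE, limma adjusted p = 0.379). CCNL2 had 1489.6, 1588, 943 and 1224 normalised reads in the knockdown, against 1536, 1309.5, 1879.8 and 1862 in the control, with a log2 fold change of -0.34 ± 0.15 (SE, limma adjusted p = 0.24). Both cyclins overlapped between the groups through knockdown libraries 1 and 2.

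SON, a scaffold of nuclear speckles, had a positive difference. Its values were 4149, 3402, 3588 and 3199 normalised reads in the knockdown, against 2592, 2919.7, 3402 and 2936 in the control. The groups overlapped through control library 3, and the log2 fold change was 0.27 ± 0.10 (SE, limma adjusted p = 0.151). SREK1, a splicing regulator with an RS-rich region, had a log2 fold change of -0.20 ± 0.09 (SE, limma adjusted p = 0.243). Of the RNA-binding regulators, RBM39 had a log2 fold change of -0.15, RBM5 of -0.11 and RBM25 of 0.06, with limma adjusted p between 0.348 and 0.743.

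None of the 11 SR protein genes passed the test, and their log2 fold changes ran between -0.24 and 0.08, with a median of -0.05. SRSF1, the founding member of the family, had 9872, 8642, 8838 and 8163 normalised reads in the knockdown, against 7811, 8895, 8529 and 8531 in the control. The groups overlapped throughout, with a log2 fold change of 0.07 ± 0.08 (SE, limma adjusted p = 0.68). SRSF11 was the one SR protein with an unadjusted p under 0.05. It had 3617, 3129.7, 3059 and 2693 normalised reads in the knockdown, against 3573, 3434, 4034 and 3717 in the control, and its log2 fold change was -0.24 ± 0.09 (SE, limma adjusted p = 0.163). Knockdown library 1 alone lay inside the control range.

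SRSF2, the speckle protein also called SC35, had 4352, 4245, 3271 and 3110.4 normalised reads in the knockdown, against 4182, 4410.1, 4170.1 and 4486 in the control. Knockdown libraries 3 and 4 were the lowest of the 8 and knockdown libraries 1 and 2 lay within the controls, giving a log2 fold change of -0.22 ± 0.10 (SE, limma adjusted p = 0.273). SRSF5 had the same 2 libraries lowest at 1864, 1726, 1429 and 1321 normalised reads in the knockdown, against 1702, 1821, 1643 and 1861 in the control (log2 fold change -0.16, limma adjusted p = 0.415). The remaining 8, SRSF3 and SRSF7 (adaptors of mRNA export), SRSF4, SRSF6, SRSF8 (a paralog of SRSF2), SRSF9, SRSF10 and SRSF1, had log2 fold changes between -0.17 (SRSF8) and 0.08 (SRSF6). SRSF2 overlaps MFSD11, SRSF9 overlaps GATC and SRSF4 overlaps MECR in RefSeq, as LUC7L2 does FMC1, DDX5 CEP95, DDX17 KDELR3, SRPK2 KMT2E and CLK3 its antisense gene, so part of the reads of each may belong to the other.

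Among the SR-like genes, SRRM2, a scaffold of nuclear speckles, had 1607, 1158, 1349 and 1545 normalised reads in the knockdown, against 963, 843, 1418 and 1196 in the control. Control library 3 stood above knockdown libraries 2 and 3, and the log2 fold change was 0.37 ± 0.14 (SE, limma adjusted p = 0.183). SRRM1, a splicing coactivator, had a log2 fold change of 0.15 (limma adjusted p = 0.399). TRA2A and TRA2B, the human relatives of Drosophila transformer-2, had log2 fold changes of 0.04 and -0.07.

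The kinases that phosphorylate these proteins gave both signs. CLK1 had 843, 772, 644 and 677 normalised reads in the knockdown, against 899, 754, 1022 and 968 in the control, with a log2 fold change of -0.31 ± 0.11 (SE, limma adjusted p = 0.148). CLK4 had 414, 359, 299.6 and 269 normalised reads in the knockdown, against 406, 404, 459 and 383 in the control, with a log2 fold change of -0.32 ± 0.12 (SE, limma adjusted p = 0.186). In both kinases knockdown libraries 3 and 4 were the lowest of the 8. CLK3 had 714, 719, 575 and 539 normalised reads in the knockdown, against 488, 646, 487 and 526 in the control, with a log2 fold change of 0.24 ± 0.12 (SE, limma adjusted p = 0.274). CLK2, SRPK1 and SRPK2 had log2 fold changes of -0.11, 0.04 and 0.05.

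Of the other LUC7-like genes, LUC7L2 had a log2 fold change of 0.13 and LUC7L of -0.11. The RNA helicases DDX5 and DDX17 had log2 fold changes of 0.02 and -0.02 with a wide spread. DDX17 had 13131, 12578, 9408 and 9849 normalised reads in the knockdown, against 10664, 11876, 11571 and 11091 in the control, so that knockdown libraries 1 and 2 stood above all controls and knockdown libraries 3 and 4 below them. DDX5 had the same order at 9846, 9128, 7894 and 7329 in the knockdown, against 8172, 8282, 8367 and 8721 in the control. OGT, the enzyme that attaches O-GlcNAc to proteins, had a log2 fold change of 0.01 (limma adjusted p = 0.969).

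Many of these genes had a spread within the knockdown group. The set was chosen with earlier results of these data known, so the contrasts with all genes below are descriptive only. Knockdown libraries 3 and 4 were the 2 lowest of the 8 libraries in 21 of the 39 genes, beside 7.87% of all genes tested, and the 2 highest in 0 of the 39, beside 7.74%. By role the count was 3 of 11 SR proteins, 1 of 4 SR-like proteins, 3 of 6 kinases, 2 of 3 LUC7-like proteins, 8 of 10 other RS-rich and speckle proteins, both helicases and 2 of the 3 further genes. The mean log2 level of the 39 genes, relative to the control mean, was 0.07, -0.03, -0.25 and -0.26 in knockdown libraries 1 to 4, against -0.05, -0.05, 0.06 and 0.04 in control libraries 1 to 4. Over all genes tested the same mean lay within 0.02 of 0 in every library. The heatmap shows these columns gene by gene.

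**Figure D3:**
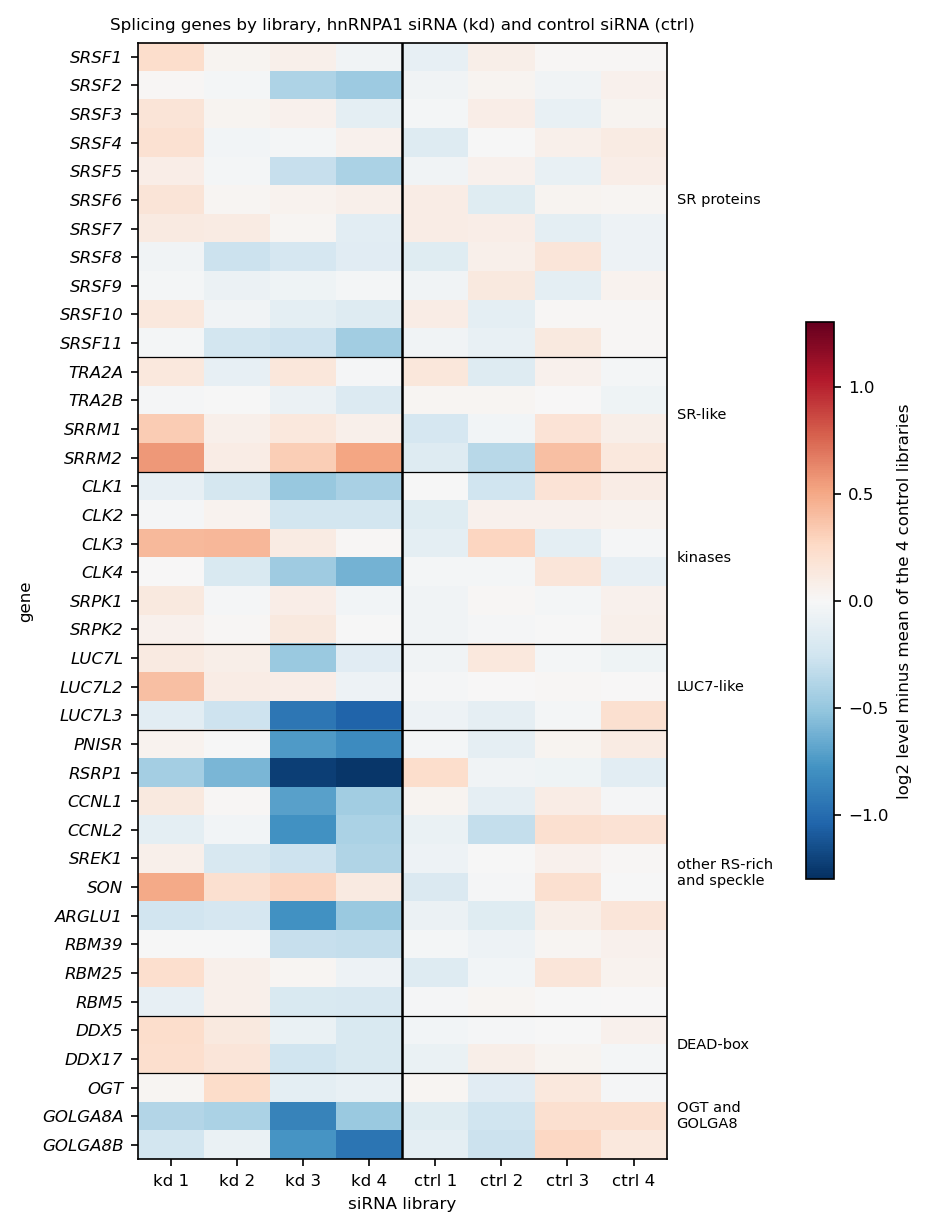
Log2 level of each of the 39 genes in each siRNA library minus the mean of the 4 control libraries (kd, hnRNPA1 siRNA, at the left of the line, ctrl, control siRNA, at the right), ordered by role. The columns of knockdown libraries 3 and 4 are blue for most RS-rich and LUC7-like genes, CLK1, CLK2, CLK4 and both GOLGA8 genes, and pale or red for SRRM2, SRRM1 and SON.

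Knockdown libraries 3 and 4 had 18.6% and 18% of their normalised reads in mitochondrial genes, against 23.7% and 21.9% in knockdown libraries 1 and 2 and 22.3% to 23.6% in the control libraries. Their estimated depths were the highest and the lowest of the 8. MALAT1, a nuclear long noncoding RNA, had 15914, 13543, 11844 and 11928 normalised reads in knockdown libraries 1 to 4, against 9364, 10242, 17596 and 14539 in control libraries 1 to 4, so the knockdown lay within the control range. The part of these differences in the results was not tested. Without knockdown libraries 3 and 4 together, the median log2 fold change of the 39 genes was 0.03, RSRP1 had -0.52 (limma adjusted p = 0.0547), GOLGA8A -0.40, ARGLU1 -0.24, LUC7L3 -0.20 and PNISR 0.02. As these are bulk samples, fewer cells with a given RNA and less of that RNA per cell cannot be told apart.

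The bases just upstream of the RefSeq start are shown for RSRP1, LUC7L3, ARGLU1 and PNISR, members in which knockdown libraries 3 and 4 were the lowest. Each line is 250 bases from RefSeq (GRCh38.p14), with capitals for GGGCGG (the GC box of SP1-type factors), CCGGAAG (an ETS-type motif) or CCAAT, on either strand. They lie at chr1:25338255-25338504 on the minus strand, chr17:50719353-50719602 on the plus strand, chr13:106568138-106568387 on the minus strand and chr6:99425309-99425558 on the minus strand.
RSRP1: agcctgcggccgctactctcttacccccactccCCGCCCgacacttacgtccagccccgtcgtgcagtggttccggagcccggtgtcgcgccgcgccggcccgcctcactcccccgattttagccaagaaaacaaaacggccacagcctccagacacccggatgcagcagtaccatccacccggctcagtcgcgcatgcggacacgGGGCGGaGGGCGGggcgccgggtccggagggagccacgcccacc
LUC7L3: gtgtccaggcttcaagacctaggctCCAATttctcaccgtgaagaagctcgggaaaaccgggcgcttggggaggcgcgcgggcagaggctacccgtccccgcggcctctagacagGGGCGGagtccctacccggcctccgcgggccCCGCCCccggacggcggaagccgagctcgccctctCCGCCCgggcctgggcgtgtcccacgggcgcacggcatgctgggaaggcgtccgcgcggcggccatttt
ARGLU1: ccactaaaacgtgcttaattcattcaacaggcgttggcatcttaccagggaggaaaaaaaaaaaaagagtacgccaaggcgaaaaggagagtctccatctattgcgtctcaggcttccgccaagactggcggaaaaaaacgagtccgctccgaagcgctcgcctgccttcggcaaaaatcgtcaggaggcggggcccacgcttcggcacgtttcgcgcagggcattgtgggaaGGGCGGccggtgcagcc
PNISR: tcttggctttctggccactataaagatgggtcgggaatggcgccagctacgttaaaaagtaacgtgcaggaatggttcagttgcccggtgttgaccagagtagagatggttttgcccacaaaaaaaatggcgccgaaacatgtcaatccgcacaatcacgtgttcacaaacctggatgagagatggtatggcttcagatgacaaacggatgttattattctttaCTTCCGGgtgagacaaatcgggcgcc
RSRP1 and LUC7L3 hold 3 GGGCGG matches each, and LUC7L3 also holds 1 CCAAT. ARGLU1 holds 1 GGGCGG and PNISR 1 CCGGAAG. Among the 35 members with a RefSeq record, 18 held GGGCGG, against 42.3% of all 27305 promoters of the same length. CCGGAAG was in 7 of 35, against 8.82% of all, and CCAAT in 10 of 35, against 33.0%. The median GC content was 63.6% for the members and 58.0% for all promoters.

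The transcripts of this gene set were common in the authors' deposited lists of hnRNPA1 RIP windows, each window 500 bases long. Each compartment has 1 list, with no value per sample, so the counts below have no replicate error. In the whole-cell list, from total lysate, 33 of the 39 genes had a window, beside 39.2% of all tested genes. Of the 38 members above the median expression 32 had one, beside 62.6% of all such genes. Among the 20 members in the top 10% of expression it was 19, beside 80.2% of all genes in that range. In the mitochondrial list it was 18 of 39, beside 6.39% of all tested genes and 10.7% of those above the median, and 14 of the 20 in the top 10%, beside 25.2%. In the cytosolic list it was 9 of 39, beside 5.17% and 7.6%. All 18 and all 9 were among the 38 members above the median expression.

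Members held 94 of the 13007 whole-cell windows, 11 of the 1519 cytosolic and 26 of the 1672 mitochondrial ones. CLK3, LUC7L3, SRRM2, SREK1 and SON had windows in all 3 lists, 5 of 39 beside 0.629% of all tested genes and 1.18% of those above the median expression. The only mitochondrial window of CLK3 was centred 30.88 kb from the start of its 21.83 kb gene, past the annotated end. With the authors' deposited lists held to a q of at most 0.005, members kept 65, 11 and 15 windows. At that q, 3 members (SREK1, SON and, through the window past its end, CLK3) had windows in all 3 lists. The share of all tested genes was not computed at that q, so these counts cannot be set against a background. SRSF4, SRSF8, RBM5 and GOLGA8B had none in any list, 4 of 39 beside 57.1% of all tested genes. At least 4 whole-cell windows were listed for 11 of the 39, beside 4.31% of all tested genes, with SRRM2 at 11, LUC7L2 at 7 and RBM39 at 5. SRSF1 was the 1 member with 4 mitochondrial windows, beside 0.308% of all tested genes. For the counts of no window and of at least 4 windows, the share of genes above the median expression was not computed. Of the 39 members 38 lay above that median, so these contrasts are not matched for expression.

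RSRP1, the gene that fell, had 2 whole-cell windows with signals of 1.13 and 0.96 in the authors' deposited list and none in the other lists. Both lay 91.2 and 92.2 kb from the RefSeq gene start, near the end of its 96.0 kb RefSeq span. Which transcript start these cells use was not tested, so the place of these windows within the transcript is not known. LUC7L3 had 3 whole-cell, 2 cytosolic and 1 mitochondrial windows, and ARGLU1 1 whole-cell and 1 mitochondrial window. PNISR had 4 whole-cell and 1 mitochondrial windows, GOLGA8A 1 whole-cell and 1 cytosolic. SRRM2 and SON, whose positive log2 differences had an unadjusted p under 0.05 and did not pass the test, held 14 and 6 windows over the 3 lists.

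Signals are the authors' own, and they are used here to rank windows within a list. The highest signal of a member in the authors' deposited whole-cell list was 3.0 for SRSF9 (chr12:120469172-120469672, minus strand), within the top 1.01% of that list. LUC7L2 (chr7:139359859-139360359, plus strand) followed at 2.34, SRSF1 (chr17:58006919-58007419, minus strand) at 2.31, SRRM2 (chr16:2771126-2771626, plus strand) at 2.20 and GOLGA8A (chr15:34386568-34387068, minus strand) at 2.16. In the authors' deposited cytosolic list SON (chr21:33556538-33557038, plus strand) was highest of the members at 1.54, then CLK3 at 1.51, SRRM2 at 1.37, RBM25 at 1.34 and SRSF11 at 1.19. In the authors' deposited mitochondrial list CLK4 (chr5:178622664-178623164, minus strand) was highest at 1.68, its only window in any list, then ARGLU1 at 1.54, DDX17 at 1.5, SREK1 at 1.39 and RBM25 at 1.33. The median signal of member windows was 1.17 in the whole-cell, 1.10 in the cytosolic and 1.10 in the mitochondrial list, against 1.22, 1.22 and 1.25 for all windows of those lists. In each list the members' median was thus the lower one.

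Window positions differed between lists. In the whole-cell list 16 of 94 member windows (17.0%) were centred within 500 bases of the RefSeq gene start. Among them were windows of SRSF1, SRSF2, SRSF5, SRSF6, SRSF9, TRA2B, LUC7L3, PNISR, CCNL1 and ARGLU1. The share set beside it is 19.9% of the 11755 placed whole-cell windows. That share also counts windows at any distance upstream of the start. None of the 11 cytosolic and none of the 26 mitochondrial member windows lay there or upstream. Counted in that way, 20.4% and 4.26% of all placed windows in those lists did. In the last 10% of the gene or past its annotated end lay 27.7% of the whole-cell member windows, against 39.5% of all placed whole-cell windows. In the whole-cell list LUC7L2 held 5 windows between 77.6 and 80.1 kb along its 83.0 kb. The whole-cell window of ARGLU1 was centred 0.214 kb from its start and the mitochondrial one 10.7 kb from it.

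**Figure D4:**
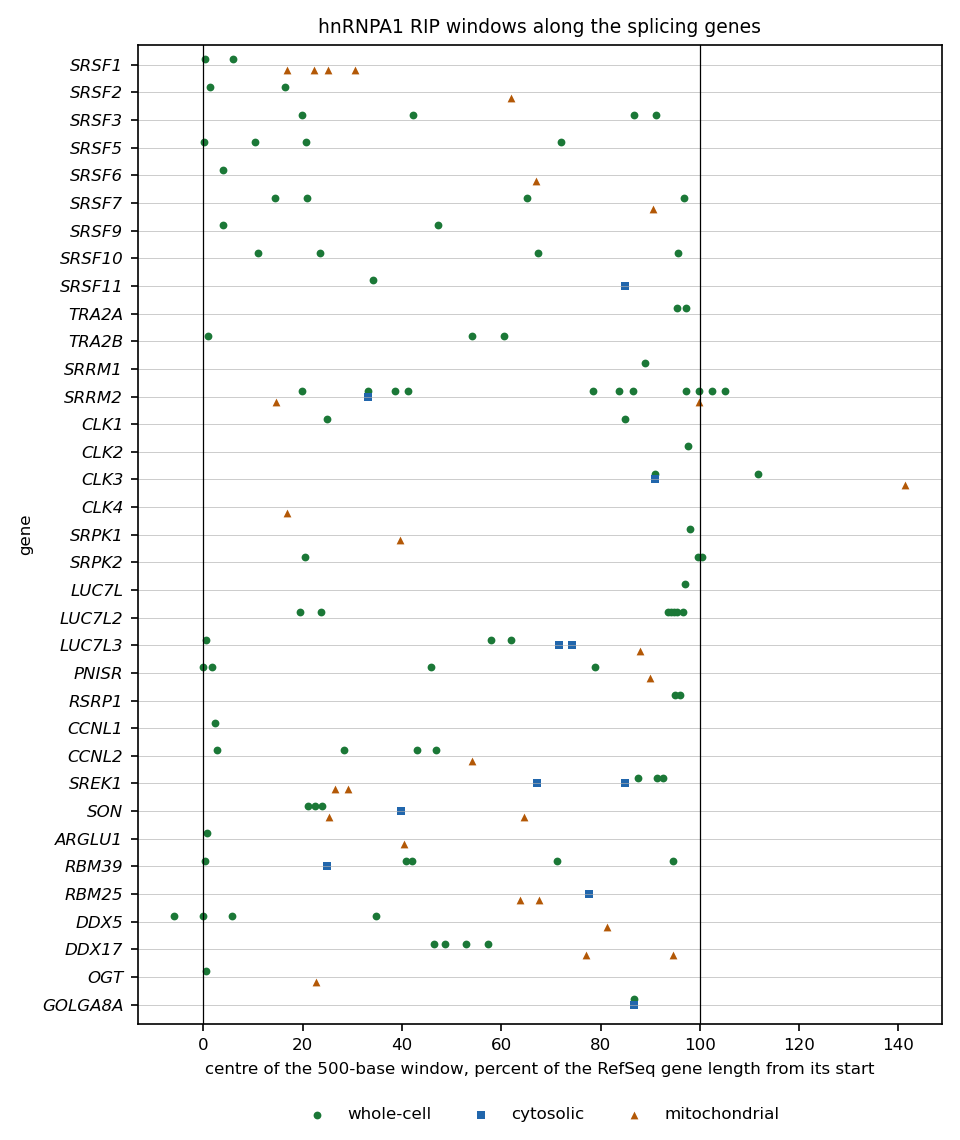
Centre of every RIP window of the 35 member genes that have one, as a percent of the RefSeq gene length from its start, for the whole-cell (circles), cytosolic (squares) and mitochondrial (triangles) lists. Circles near 0 mark the 16 whole-cell windows within 500 bases of a start, where no square or triangle lies, and points past 100 (SRRM2, CLK3, SRPK2) lie beyond the annotated end.

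Few member windows were shared between lists. Overlap by at least 1 base on the same strand was found for 3 cytosolic windows with a whole-cell one (CLK3, GOLGA8A and SRRM2), 27.3% of the cytosolic and 3.19% of the whole-cell member windows, beside 9.56% and 1.06% over all windows of the 2 lists. For mitochondrial and whole-cell windows 1 was shared (SRRM2), 3.85% and 1.06% of the member windows, beside 10.4% and 1.55% over all windows, and this window was lost at a q of at most 0.005. No member window was shared between the mitochondrial and cytosolic lists, beside 3.29% and 3.69% over all windows. SRSF1 and SREK1 had windows in more than 1 list, at different positions in each.

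Other parts of the splicing machinery were looked at in the same fit. Of 30 U1 and U2 snRNP and downstream splice site factors, none was called by limma at an adjusted p under 0.05, beside 1.65% of all genes tested, while 12 had an unadjusted p under 0.05, beside 19.2%, and the median log2 fold change was 0.00. SF3A1 and SNRPA1, subunits of the U2 snRNP, had the smallest adjusted p, with log2 fold changes of 0.34 (limma adjusted p = 0.0543) and 0.39 (limma adjusted p = 0.0758). SF3A1 passed without knockdown library 1 (adjusted p = 0.046) and SNRPA1 without knockdown library 4 (adjusted p = 0.0333).

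Of 30 tri-snRNP and catalytic factors, 2 rose, 0 fell and 28 did not pass, beside 0.675% of all genes called higher, with a median log2 fold change of 0.01. PRPF8, the central U5 snRNP protein, had 9502, 8930.4, 9091 and 8271 normalised reads in the knockdown, against 5023, 5894, 7230.2 and 6151 in the control. The groups did not overlap, and the log2 fold change was 0.57 ± 0.10 (SE, limma adjusted p = 0.0153), with adjusted p between 0.0501 and 0.0527 when knockdown library 2 or 3 or control library 4 was left out. PRPF19, the ubiquitin ligase of the PRP19 complex, had 817, 829, 844 and 794 normalised reads in the knockdown, against 490.1, 636, 626 and 648 in the control. Its log2 fold change was 0.46 ± 0.09 (SE, limma adjusted p = 0.0287), with adjusted p between 0.0512 and 0.0954 without knockdown library 2 or 3 or control library 1 or 4.

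Nonsense-mediated decay removes transcripts with premature stop codons, the products of many SR gene poison exons. Of 21 decay and exon junction complex genes, 0 rose and MAGOHB, a core subunit of the exon junction complex, fell, beside 0.976% of all genes called lower. At an unadjusted p under 0.05 there were 7 of the 21, beside 19.2% of all genes, of which 6 were higher in the knockdown, beside 9.5%. The median log2 fold change was 0.135, with 18 of 21 above 0, beside 7755 of 15267 over all genes tested. MAGOHB had 516, 505, 573 and 513 normalised reads in the knockdown, against 738, 629, 717 and 677 in the control. The groups did not overlap, and the log2 fold change was -0.39 ± 0.08 (SE, limma adjusted p = 0.0322). The call was lost without any 1 of the 4 knockdown libraries or of control libraries 1, 3 and 4, with adjusted p between 0.0527 and 0.104.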

How the data were processed

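The members and gene lists were chosen with earlier results of these data known. For the siRNA libraries the authors deposited a signal per gene, never negative, which the values show to be reads divided by a factor for each library. Since 83.6% to 84.8% of the values under 300 came out whole (tolerance 0.02) when divided by the smallest step, they were not treated as counts. The submitters' processing notes name Partek, STAR 2.7.8a, DESeq2 and hg38, with no roles given. Genes reaching 10 in 4 or more libraries (15267) were tested with limma 3.58.1 (trend, no block) in R 4.3.3 on log2(value + 1), with Benjamini-Hochberg adjustment over those genes, and fold changes are on that scale.

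For each compartment the authors deposited 1 list of windows with a signal score, a p-value and a q-value. The sources used here do not give the caller's version or the background library. The submitters' processing notes name hg38, with no role given, so the build of these lists was checked against gene starts. Coordinates are printed as deposited. Window starts lay on a 500-base grid from the RefSeq GRCh38.p14 gene start for 41.4% of 14418 windows placed, so that build was used for positions along genes. Windows were overlapped with bedtools 2.31.1. All members were described by role. Of each other list, genes called, or else the 2 with the smallest adjusted p, were named. Alternatives were another pseudocount, filter, variance prior, scaling, threshold, a replicate block and libraries left out.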

Additional observations from a re-analysis of the deposited data

Results flagged for a closer look

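In 3 of 90 groups of 4 libraries looked at (45 genes in each siRNA group), 1 library stood apart from the other 3 by Dixon's criterion, which chance does in about 1 group in 20. CLK2 had 303.1 normalised reads in control library 1, against 349 to 353 in the other control libraries. PRPF19 had 490.1 normalised reads in control library 1, against 626 to 648 in the other control libraries. MAGOHB had 573 normalised reads in knockdown library 3, against 505 to 516 in the other knockdown libraries.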

How the results depend on the processing

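The labels give no shared culture, batch or day for same-numbered libraries, so the main fit did not use the numbers as pairs. The correlations of same-numbered deviations were 0.12, 0.29, 0.04 and 0.23, and those of different numbers ran from -0.251 to 0.247. Whether the numbers mark pairs was not settled. With the number as a replicate block, limma called 1191 of the 15267 genes (605 higher and 586 lower). It called 5 of the 39 members, with RSRP1, LUC7L3, ARGLU1 and GOLGA8A lower and SRRM2 higher. Of the U1 and U2, tri-snRNP and decay lists it called 8 of 30, 5 of 30 and 5 of 21 genes. Knockdown libraries 3 and 4 did not correlate best with their own number.

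Without the variance trend 48 genes were called (15 higher and 33 lower), and at an adjusted p under 0.01 also 48 (10 higher and 38 lower). Both settings left 0 members, 0 tri-snRNP and 0 decay genes. Among genes above the median expression 2 members, 1 U1 or U2 gene and 2 decay genes were called. That setting also called more genes in all than the main fit did, from fewer genes tested. These counts alone therefore do not show a gain of the lists over all genes. Without knockdown libraries 3 and 4, 94 genes were called (29 higher and 65 lower), with 0 members, 1 U1 or U2 gene and 0 decay genes. The members' median was then 0.0315, and the mean was 0.0452 for kinases, 0.0461 for LUC7-like genes, -0.0346 for other RS-rich genes and 0.182 for helicases. The sign turned for SRSF5 (0.0315), SRSF10 (0.0453), CLK2 (0.0159), LUC7L (0.097), PNISR (0.0189), CCNL1 (0.0742) and DDX17 (0.187).

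Leaving out 1 library gave 61 to 254 genes (15 to 96 higher and 46 to 158 lower), 0 to 2 members, and 0 to 1, 0 to 3 and 0 to 1 genes of the 3 lists. It turned the sign within -0.0113 to 0.0884 for SRSF3, -0.00925 to 0.0851 for SRSF4, -0.0127 to 0.0823 for SRSF7, -0.016 to 0.0896 for TRA2A, -0.186 to 0.0147 for LUC7L, -0.0526 to 0.0894 for DDX5, -0.102 to 0.0588 for DDX17 and -0.0689 to 0.055 for OGT, none of which was called. At signals above the list median, members held 42 whole-cell, 4 cytosolic and 10 mitochondrial windows. At those signals 4 members had a cytosolic and 9 a mitochondrial window. Windows in all 3 lists were then left for 1 member, CLK3, whose mitochondrial window lies past the annotated end. Between mitochondrial and whole-cell lists 0 windows were then shared. At a q of at most 0.005, members held 15 mitochondrial windows, and 3 had windows in all 3 lists. In a setting chosen after seeing the data, 0 windows were shared between mitochondrial and whole-cell lists at that q. How many of all tested genes kept windows under either setting was not computed. The cause of these shifts was not tested, apart from the smaller number of libraries, genes or windows that some settings leave. A pseudocount of 0.1, no filter, TMM factors and an overlap of 250 bases each left the counts within 1.5 times.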
